A study of Oreochromis niloticus with 8 samples.

Results

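Hepcidin is a small peptide hormone that binds the iron exporter ferroportin and triggers its breakdown, so that less iron leaves cells. Inside cells, iron regulatory proteins read the iron supply and adjust the messages for uptake and storage, ferritin stores iron, and a cargo receptor delivers ferritin for breakdown when iron is needed. In mammals hepcidin comes mainly from the liver and is raised by bone morphogenetic protein (BMP) signals and by interleukin 6, while in the brain these genes set how much iron neurons and glia hold.

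The genes described here are hepcidin (hamp, listed as LOC100698871), ferroportin (slc40a1), transferrin receptor 2 (tfr2), the iron regulatory proteins ireb2 and aco1, and the ferritin receptor ncoa4. They were chosen by name from a list of 8 iron genes, by exact match to the row identifiers of the deposited tables. Of the 8, 6 were rows among the 29533 listed, and slc11a2 and hfe2 are not analysed here under those names. The list was drawn up with results of the cold against control contrast known, so the members' levels and differences are given as a description, with no test. Of the 6 genes, 5 reached a mean of 1 TPM in a group, and tfr2 did not.

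The libraries came from the midbrain of Nile tilapia (Oreochromis niloticus), a warm-water cichlid fish, with 4 libraries from cold-exposed fish (cold) and 4 from fish kept at normothermy (control). The labels name no strain, age, sex, temperature or duration of exposure, and whether each library is a single fish is not given in the sources used here, so that p-values cover no more than the variation among the 8 libraries. Values are described as TPM (transcript abundances), a unit scaled by gene length and library total. Where values are scaled that way, levels can be compared between genes, but the scaling by gene length was not checked. Absolute depth is unknown. Between 17842 and 18506 genes reached 1 TPM in a library. On the second principal component of all tested genes, cold 2 (33.3) and control 4 (31.3) stood apart from the other libraries (-22.9 to 2.67), and the members' differences are also given without them. Neuron markers were high in every library (summed level of 7 genes 2151 to 2383 TPM in cold and 2287 to 2660 TPM in control). Of these 7, limma called 2 lower (28.6%) and 0 higher (2 and 0 at an unadjusted p under 0.05), against 23.6% and 13.0% of all tested genes. Of 10 tested midbrain markers, among them the tyrosine hydroxylase gene th, 7 were lower in cold and 0 higher by limma (7 and 0 at an unadjusted p under 0.05), against 23.6% of all tested genes called lower. Median-of-ratios scaling sets the median gene rather than the total equal between libraries. After it 5 were lower, with the calls of gata3 and pou4f2 lost. Both calls were also lost without any of cold 2, cold 4, control 1 and control 2, and that of pou4f2 without control 3. The call of pou4f1 was lost with a replicate block and without either of control 1 and control 2.

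Hepcidin messenger RNA was high in cold midbrain and low in control midbrain. The level of hamp was 29.5, 78.6, 48.8 and 41.3 TPM in the cold libraries 1 to 4, against 2.75, 0.302, 2.14 and 8.02 TPM in the control libraries 1 to 4. Every cold library lay above every control library, with a 2.67-fold spread within cold and a 26.6-fold spread within control. The mean was 49.6 ± 20.9 TPM in cold and 3.30 ± 3.32 TPM in control (SD, n = 4 each), 15.0 times as high in cold. The log2 change of hamp, computed on log2(TPM + 1) values as cold minus control, was 3.79 ± 0.53 (SE), the rank of 4 from the top among the 18863 genes tested. The added 1 TPM shrinks changes of low genes, and with 0.1 TPM added the log2 change was 4.45. Of the tested genes, 83.2% had a lower mean than hamp in cold and 18.5% in control. Many fish carry further hepcidin copies, and rows without a symbol were not searched for them.

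**Figure D1:**
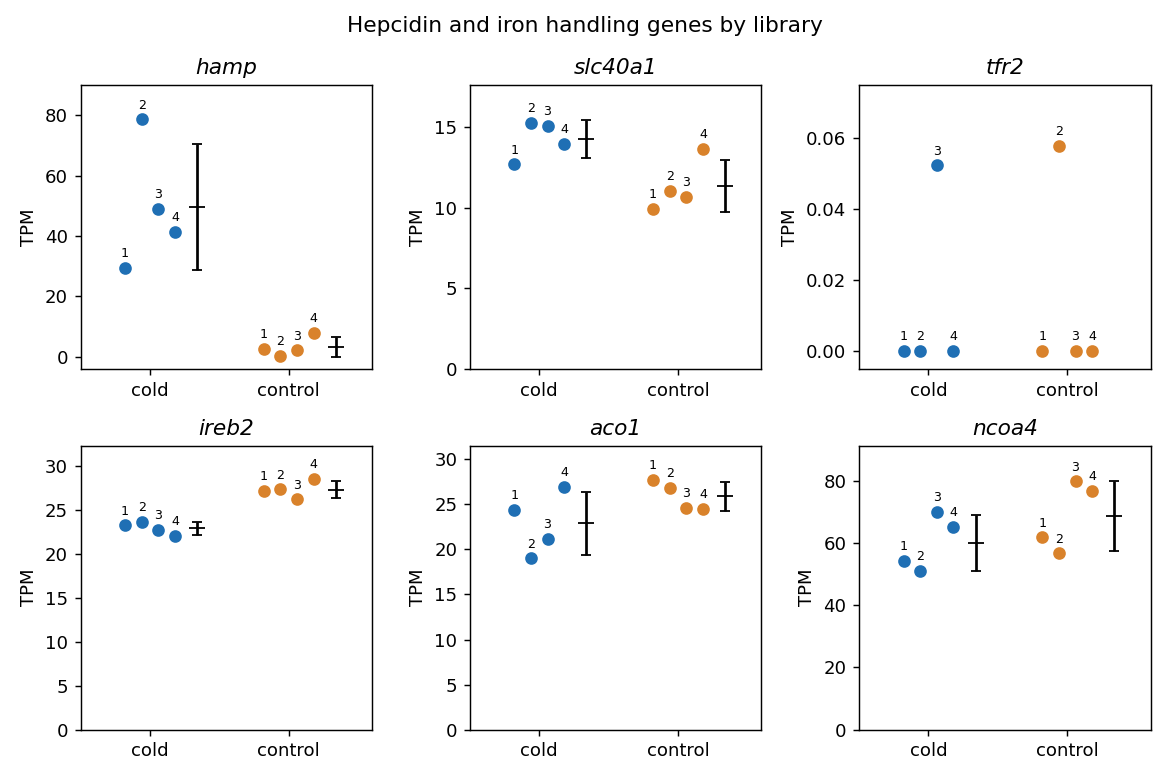
Level (TPM, linear axes that differ between panels) of the 6 genes in each library, with the 4 cold libraries in blue on the left and the 4 control libraries in orange on the right of each panel. Digits are replicate numbers and black bars are the mean with SD, left out for tfr2, which is listed at 0 in most libraries. Cold values of hamp (29.5 to 78.6 TPM) lie above and cold values of ireb2 (22.0 to 23.7 TPM) below all control values, and the groups of the other genes overlap.

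The libraries at the extremes of hamp were cold 2 and control 4, the highest of their groups, and control 2, the lowest of all. Without cold 2 and control 4 the log2 change was 4.01. Leaving out any single library gave log2 changes between 3.33 (without control 2) and 4.26 (without control 4).

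Messenger RNA of ferroportin, the only known exporter of iron from vertebrate cells and the target of hepcidin, had a somewhat higher mean in cold. The protein was not measured. The level of slc40a1 was 12.7, 15.3, 15.1 and 14.0 TPM in cold libraries 1 to 4, against 9.94, 11.1, 10.7 and 13.6 TPM in control libraries 1 to 4. The groups overlapped through control 4, which lay above cold 1, and the library of highest hamp in each group was also the library of highest slc40a1. Mean levels were 14.2 ± 1.19 TPM in cold and 11.3 ± 1.61 TPM in control, a log2 change of 0.31 ± 0.10 (SE). Without control 4 and cold 2 it was 0.37.

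Transferrin receptor 2, which in mammals senses iron-loaded transferrin on hepatocytes and erythroid cells, was close to undetected. The value of tfr2 was 0.0523 TPM in cold 3 and 0.0578 TPM in control 2, and it was listed at 0 in the other 6 libraries. No fold is given for this gene.

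The genes of both iron regulatory proteins, which bind iron-responsive elements in messages such as those of ferritin and ferroportin, were at similar levels to each other. The level of ireb2, which encodes iron regulatory protein 2, was 23.3, 23.7, 22.7 and 22.0 TPM in cold libraries 1 to 4, against 27.2, 27.3, 26.2 and 28.5 TPM in control libraries 1 to 4. All cold values lay below all control values, and libraries within a group differed by at most 1.09-fold. The mean was 22.9 ± 0.718 TPM in cold and 27.3 ± 0.955 TPM in control, a log2 change of -0.24 ± 0.05 (SE). After median-of-ratios scaling it was -0.15, and without control 4 and cold 2 it was -0.24.

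The level of aco1, which encodes the cytosolic aconitase that serves as iron regulatory protein 1 when it lacks its iron-sulfur cluster, was 24.4, 19.0, 21.2 and 27.0 TPM in cold libraries 1 to 4, against 27.7, 26.8, 24.6 and 24.5 TPM in control libraries 1 to 4. The groups overlapped, since cold 4 lay above 3 of the control libraries. Mean levels were 22.9 ± 3.52 TPM in cold and 25.9 ± 1.61 TPM in control, with a log2 change of -0.18 ± 0.11 (SE) that was -0.10 without cold 2, -0.13 without control 4 and cold 2, and -0.09 after median-of-ratios scaling. The ratio of aco1 to ireb2 averaged 1.0 ± 0.18 in cold and 0.949 ± 0.0691 in control.

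The level of ncoa4, which encodes the receptor that carries ferritin to autophagosomes, was 54.2, 51.0, 70.1 and 65.1 TPM in cold libraries 1 to 4, against 61.9, 56.7, 79.9 and 76.8 TPM in control libraries 1 to 4. The groups overlapped, and in both groups libraries 3 and 4 were above libraries 1 and 2. Mean levels were 60.1 ± 9.01 TPM in cold and 68.8 ± 11.3 TPM in control, a log2 change of -0.19 ± 0.14 (SE) that was -0.06 without control 4 and cold 2 and -0.09 after median-of-ratios scaling.

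Of the 6 members, hamp and ireb2 were the 2 whose groups did not overlap. Among all 18863 tested genes the groups did not overlap in 36.9%, in 13.4% with all cold values above and in 23.4% with all cold values below. Because the members were chosen with this contrast known, nothing is read from their count.

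The order of the members' levels, which rests on the described scaling by gene length, differed between groups through hamp. In cold it ran from ncoa4 (60.1 TPM) through hamp (49.6 TPM), ireb2 (22.9 TPM), aco1 (22.9 TPM) and slc40a1 (14.2 TPM) to tfr2. In control it ran from ncoa4 (68.8 TPM) through ireb2 (27.3 TPM), aco1 (25.9 TPM), slc40a1 (11.3 TPM) and hamp (3.30 TPM) to tfr2. In cold the values of ncoa4 and hamp overlapped, and cold 2 had more hamp than ncoa4, while ireb2 and aco1 overlapped in both groups. In every control library hamp was below slc40a1, and in every cold library it was above slc40a1, ireb2 and aco1.

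**Figure D2:**
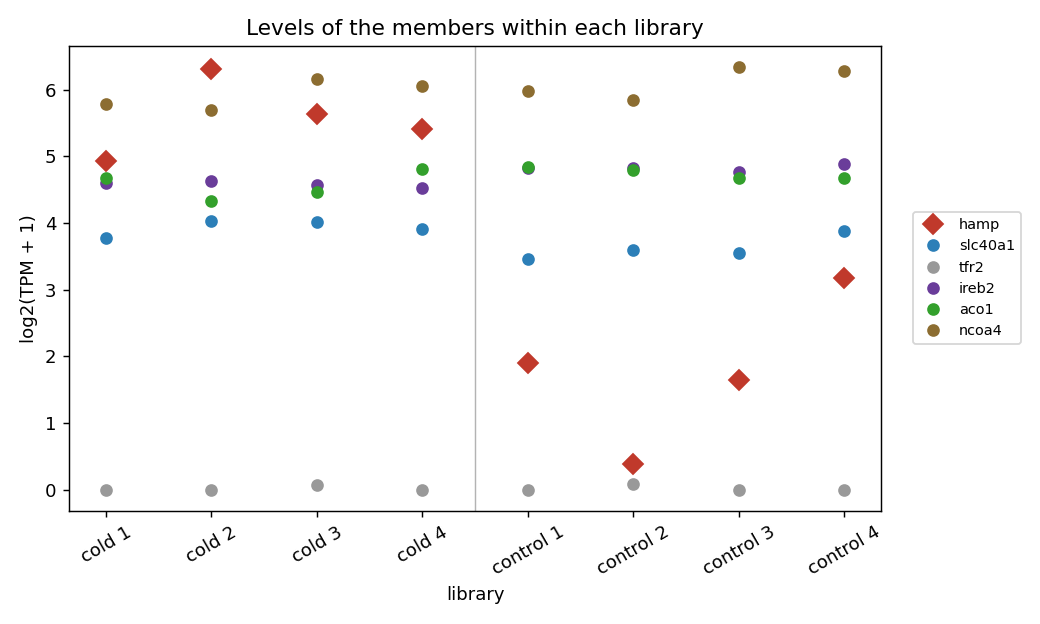
Level of the 6 members in each library as log2(TPM + 1), with cold libraries on the left and control libraries on the right of the grey line. The diamonds of hamp lie at or near the top in cold (29.5 to 78.6 TPM) and under slc40a1 in control (0.302 to 8.02 TPM), and the other members keep similar heights across the 8 libraries.

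Genes with a profile like that of hamp were sought among 13252 other tested genes with a symbol and a group mean of 2 TPM or more. Likeness was the root mean square difference between log2(TPM + 1) profiles over the 8 libraries, each centred on its own mean, where smaller is more alike. The 5 nearest were nr1d1, a circadian repressor gene (0.64), ciarta, a gene of another circadian repressor (0.69), sertad1, a gene of a transcriptional coregulator (0.90), dbpb, which encodes a transcription factor under clock control (0.93), and rnf227, which encodes a RING finger protein (0.99). The centred profile of hamp itself had a root mean square of 2.05. Most of that profile is the difference between the groups (log2 change 3.79), which was known when hamp was listed. The search therefore mainly finds genes with a rise of similar size, and no shared regulation is read from it. Within groups these 5 genes varied less than hamp, from 65.0 to 80.1 TPM in cold and from 2.71 to 5.31 TPM in control for nr1d1. Control 2 was the lowest control library in all 5, as in hamp, though less far below the others. Control 4 was the highest control library in nr1d1, ciarta and dbpb, as in hamp, and control 3 in sertad1 and rnf227. Cold 2, the highest cold library in hamp, was the highest in none of the 5. These values within groups also entered the search.

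**Figure D3:**
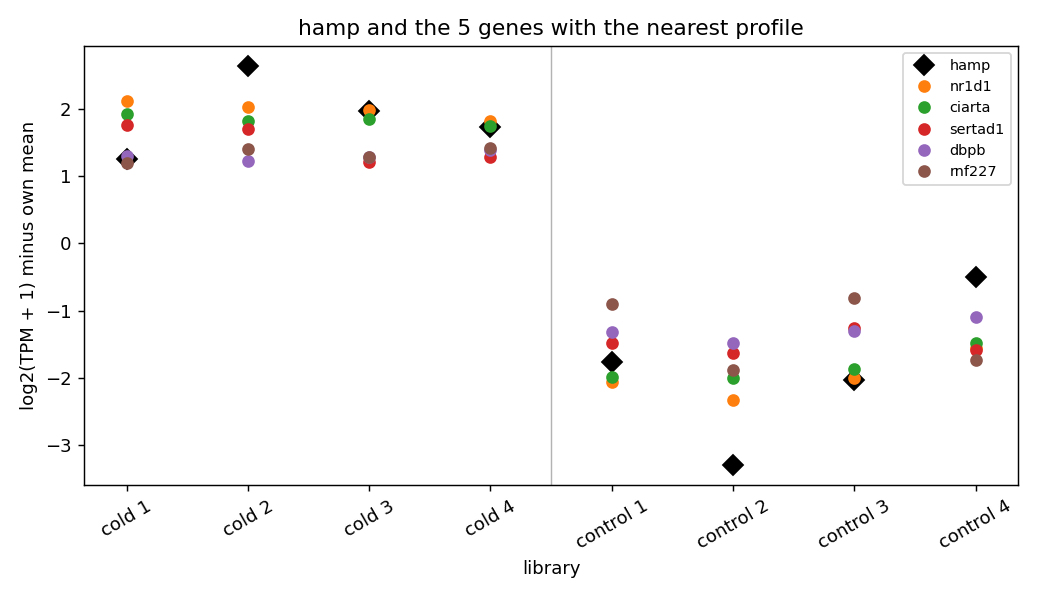
Log2(TPM + 1) minus the gene's own mean over the 8 libraries, for hamp (black diamonds) and the 5 genes of nearest profile (coloured circles), with cold libraries on the left. All 6 genes are above their mean in cold and below it in control, and hamp spreads more within groups, with cold 2 and control 4 high and control 2 low.

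The other genes of iron biology were taken from 6 lists that together held 108 rows besides the members, of which 105 were tested. limma on log2(TPM + 1), with p adjusted by the Benjamini-Hochberg method over all 18863 genes and calls at an adjusted p under 0.05, called 40 of them (38.1%), against 36.7% of all tested genes. Of these, 12 were higher and 28 lower in cold. The share called higher was 11.4% (13.0% of all tested genes) and the share called lower 26.7% (23.6% of all tested genes). Called genes were thus about as frequent in the lists together as among all genes. After median-of-ratios scaling 20 were higher and 21 lower, while of all tested genes 35.4% were then called, 18.6% higher and 16.8% lower, so the excess of lower calls depends on the scaling. Named a and b copies of these genes are near relatives, and reads could have been divided between them in the counting.

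Genes of the BMP branch of hepcidin regulation were called in both directions. In mammals BMP6 binds receptors with haemojuvelin as a coreceptor, SMAD proteins carry the signal to the nucleus, and hamp, id1 and id3 are among the targets. Among the 14 BMP-SMAD genes tested, 2 rose (14.3%) and 2 fell (14.3%), against 13.0% and 23.6% of all tested genes. After median-of-ratios scaling the counts were 3 and 1. The list had a median log2 change of -0.08, against -0.09 for all tested genes. The target id3 rose, at 96.1 ± 10.6 TPM in cold and 49.3 ± 4.02 TPM in control (log2 change 0.94 ± 0.09, limma adjusted p = 0.000116). The SMAD gene smad1 rose, at 17.9 ± 2.25 TPM in cold and 12.03 ± 1.97 TPM in control (0.54 ± 0.13, limma adjusted p = 0.0113, and 0.0696 without control 2 and cold 4).

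The common partner smad4a fell, at 16.1 ± 1.15 TPM in cold and 20.3 ± 0.728 TPM in control (-0.32 ± 0.07, limma adjusted p = 0.00650). The target id1 fell narrowly, at 191 ± 12.5 TPM in cold and 227 ± 24.0 TPM in control (-0.24 ± 0.08, limma adjusted p = 0.0474). The call of id1 was lost after median-of-ratios scaling (0.226) and without any single library except control 2 (0.0507 to 0.119). The target id3 was thus higher, while the groups of id1 overlapped (173 to 202 TPM in cold and 196 to 250 TPM in control) and its lower call did not hold.

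The ligand gene bmp6 measured 1.35, 2.17, 1.67 and 2.21 TPM in cold libraries 1 to 4, against 2.19, 1.92, 2.42 and 1.80 TPM in control libraries 1 to 4 (limma adjusted p = 0.553). The groups of bmp6 overlapped. The haemojuvelin gene, formerly hfe2 and here hjv, was listed as LOC100690393 at 0.0618 to 0.499 TPM in cold and 0.0587 to 0.375 TPM in control, too low to be tested. Its partner neo1 measured 9.24 ± 1.34 TPM in cold and 11.2 ± 0.483 TPM in control (limma adjusted p = 0.0662, and 0.0130 without cold 4). The hepcidin-lowering protease gene tmprss6 was also untested, at no more than 0.195 TPM in a library.

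Of 19 symbols listed for the interleukin 6 branch, 14 were rows, and il6 itself was not among them. The rows include inhbaa and inhbab, which encode activin subunits, and neither was called. This list held 3 rises (23.1%) and 1 fall (7.69%) among 13 tested genes, against 13.0% and 23.6% of all tested genes, with a median log2 change of 0.08. After median-of-ratios scaling 5 were higher and 1 lower. In this branch the receptor il6st activates STAT3, which raises hamp in mammals, and socs3 is both a STAT3 target and its brake. The level of socs3 was 86.1, 71.8, 86.6 and 112 TPM in cold libraries 1 to 4, against 28.5, 26.8, 33.8 and 27.6 TPM in control libraries 1 to 4. The groups of socs3 were well apart (log2 change 1.56 ± 0.13, limma adjusted p = 6.61e-05), and cold 4, not cold 2, was the highest. The lower copy socs3b, named after its values were seen, was at 6.47 ± 0.977 TPM in cold and 4.97 ± 0.757 TPM in control. The groups of socs3b overlapped and it was not called (limma adjusted p = 0.0815), but it was called higher after median-of-ratios scaling.

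The transcription factor gene cebpb rose, at 45.9 ± 3.59 TPM in cold and 23.1 ± 3.18 TPM in control (0.97 ± 0.10, limma adjusted p = 0.000219). Its relative cebpa, which in mouse liver activates hepcidin, fell, at 3.11 ± 0.681 TPM in cold and 6.02 ± 1.55 TPM in control (-0.76 ± 0.18, limma adjusted p = 0.00944). The call of stat3 (62.9 ± 4.83 TPM in cold and 53.7 ± 4.35 TPM in control, higher, limma adjusted p = 0.0499) was lost without any of cold 1, cold 3, cold 4, control 1, control 2 and control 3 (0.0754 to 0.119). The shared receptor il6st, named after its values were seen, was at 74.9 ± 1.29 TPM in cold and 74.4 ± 2.40 TPM in control.

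**Figure D4:**
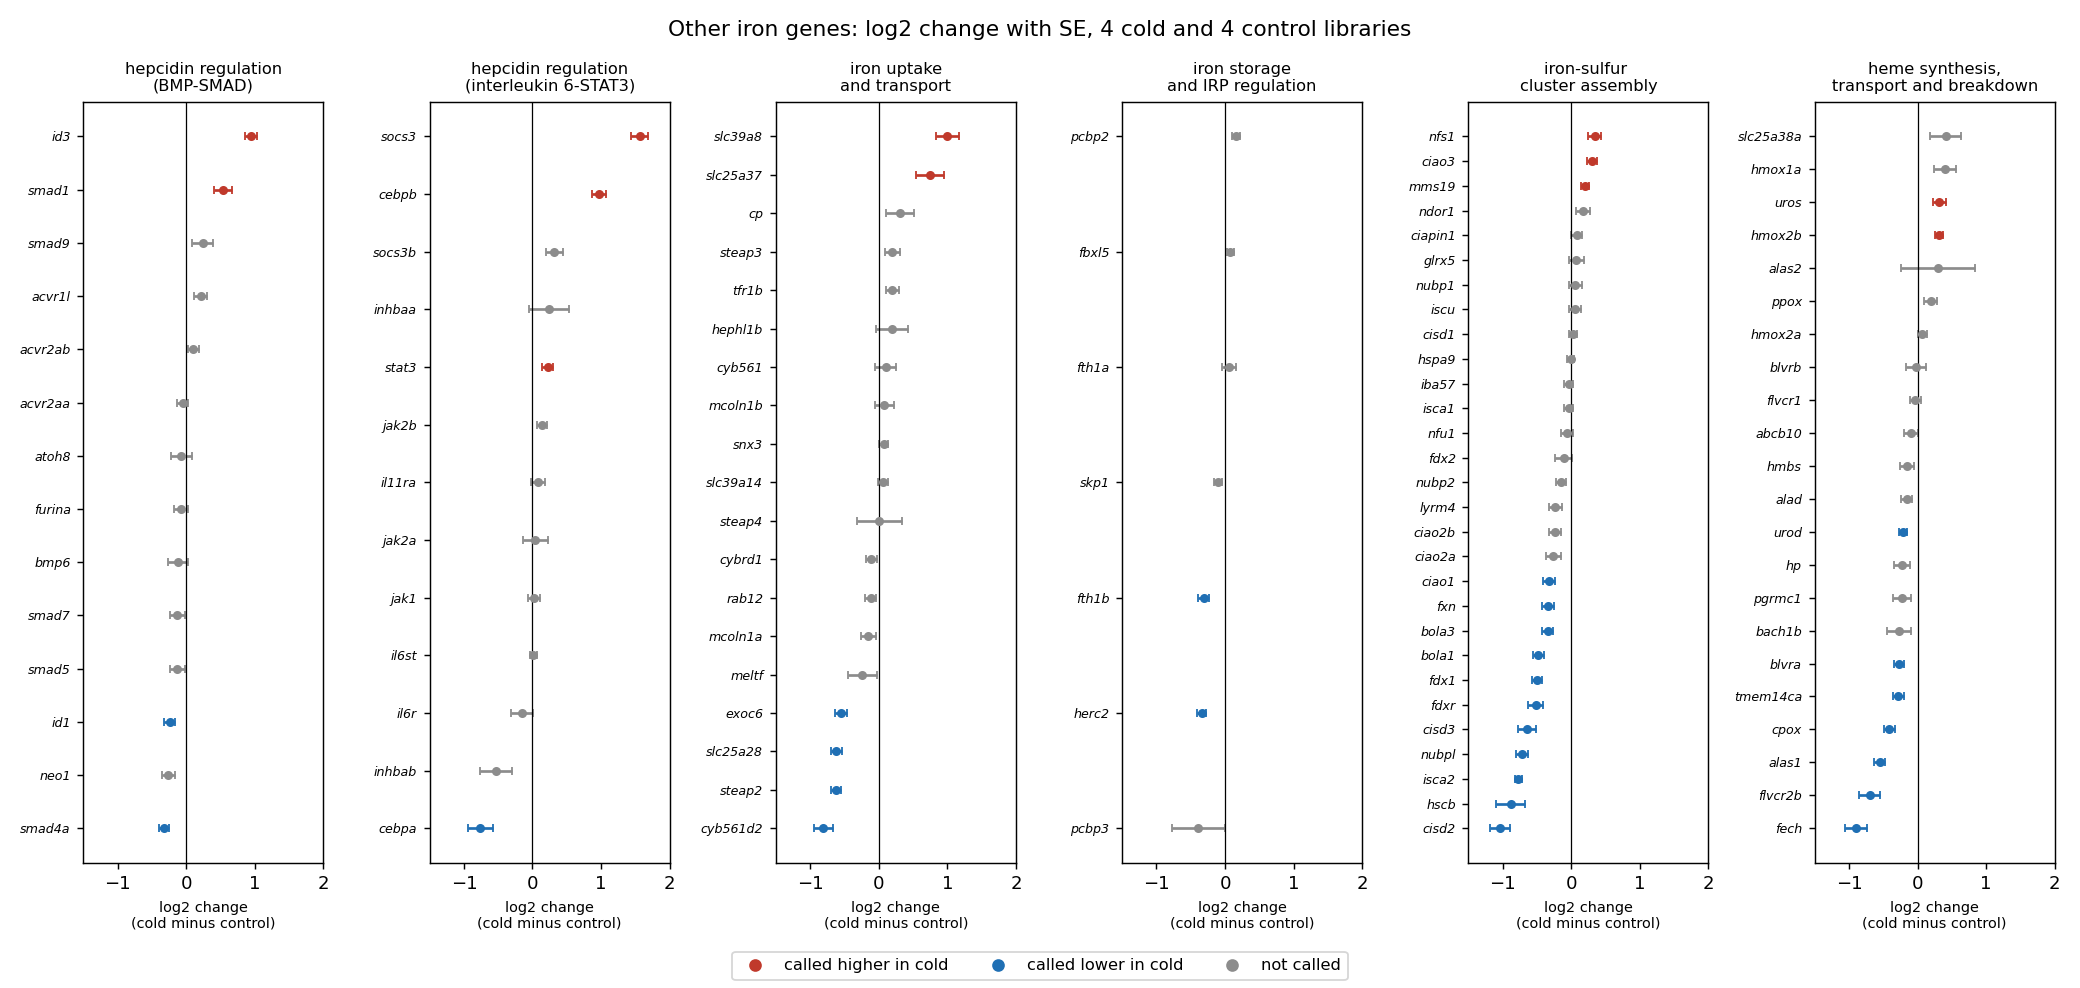
Log2 change (cold minus control, log2(TPM + 1) scale) with SE for the tested genes of the 6 iron lists, leaving out the 8 listed members and a gene not reported here. Red marks genes called higher in cold, blue genes called lower and grey genes not called by limma. The calls in both hepcidin regulation panels fall on both sides of 0 (socs3 1.56, cebpa -0.76), and the iron-sulfur panel holds more blue genes than red ones, of which there are 3.

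Iron uptake and transport held 2 rises (10.5%) and 4 falls (21.1%) among 19 tested genes, near the shares of all tested genes (13.0% and 23.6%). The metal importer gene slc39a8 rose, at 21.7, 12.01, 20.1 and 18.4 TPM in cold libraries 1 to 4, against 7.83, 9.72, 8.34 and 7.56 TPM in control libraries 1 to 4. Its groups did not overlap (log2 change 1.0 ± 0.17, limma adjusted p = 0.00202). The mitochondrial iron carriers went in opposite directions. The gene slc25a37 (mitoferrin 1) rose, at 6.62 ± 2.05 TPM in cold and 3.43 ± 0.712 TPM in control (0.75 ± 0.20, limma adjusted p = 0.0168, and 0.0618 without control 4 and cold 2). The more abundant slc25a28 (mitoferrin 2) fell, at 50.1 ± 4.37 TPM in cold and 77.6 ± 5.26 TPM in control (-0.62 ± 0.08, limma adjusted p = 0.000412).

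The other falls were those of the metalloreductase gene steap2 (28.0 ± 0.354 TPM in cold and 43.8 ± 3.75 TPM in control, limma adjusted p = 0.000232), of exoc6, an exocyst gene needed for transferrin recycling in mouse red cell precursors (17.0 ± 2.16 and 25.1 ± 0.942 TPM in cold and control, adjusted p = 0.00212), and of cyb561d2, a gene of a cytochrome b561 relative (1.51 ± 0.289 and 3.42 ± 0.600 TPM in cold and control, adjusted p = 0.00268). The transferrin receptor gene tfr1b, which brings transferrin iron into cells, measured 27.4, 31.9, 36.5 and 37.8 TPM in cold libraries 1 to 4, against 26.6, 28.8, 29.3 and 30.8 TPM in control libraries 1 to 4. The groups of tfr1b overlapped through cold 1 (limma adjusted p = 0.164), and the gene was called higher without cold 1 (0.0301) and after median-of-ratios scaling (0.0369). Melanotransferrin (meltf) was low, at 2.22 ± 0.729 TPM in cold and 2.79 ± 0.866 TPM in control (adjusted p = 0.420).

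Iron storage was dominated by ferritin. The heavy-chain gene fth1a, the most abundant gene of the 6 lists, measured 1884, 2235, 1917 and 2409 TPM in cold libraries 1 to 4, against 2008, 2320, 1822 and 1966 TPM in control libraries 1 to 4. Its groups overlapped fully (log2 change 0.06 ± 0.10, limma adjusted p = 0.703). The second copy fth1b fell, at 119 ± 12.3 TPM in cold and 147 ± 10.6 TPM in control (-0.31 ± 0.08, limma adjusted p = 0.0193), though not after median-of-ratios scaling (0.0646) or without control 2 (0.0532).

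Besides the members, 7 genes of storage and iron regulatory protein control were tested, and limma called 0 higher and 2 lower (1 and 2 at an unadjusted p under 0.05). The share called lower was 28.6%, against 23.6% of all tested genes. After median-of-ratios scaling 2 were higher and 1 lower. The other fall was that of herc2, which encodes a ubiquitin ligase for NCOA4, at 20.0 ± 1.57 TPM in cold and 25.5 ± 0.736 TPM in control (-0.34 ± 0.07, limma adjusted p = 0.00465). The gene fbxl5, whose product marks iron regulatory proteins for breakdown when iron is plentiful and is named here after its values were seen, was at 60.1 ± 3.11 TPM in cold and 56.5 ± 1.93 TPM in control. It was not called (log2 change 0.08), but was called higher after median-of-ratios scaling (0.18).

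Iron-sulfur cluster assembly, the machinery that uses iron in mitochondria and cytosol, held 3 rises (10.0%) and 12 falls (40.0%) among 30 tested genes, against 13.0% and 23.6% of all tested genes. The median log2 change of this list was -0.19. With median-of-ratios scaling the counts were 3 and 10. The fall of lowest p was isca2, which acts in late cluster assembly, at 51.4, 48.6, 47.7 and 48.5 TPM in cold libraries 1 to 4, against 82.5, 89.2, 82.5 and 83.9 TPM in control libraries 1 to 4 (log2 change -0.77 ± 0.05, limma adjusted p = 2.06e-05). The groups of isca2 lay far apart compared with the spread within each.

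Further falls of low p were those of nubpl, an assembly factor of respiratory complex I (15.7 ± 1.90 TPM in cold and 26.4 ± 0.558 TPM in control) and the cluster protein gene cisd2 (8.77 ± 0.897 and 19.4 ± 4.51 TPM in cold and control). The ferredoxin gene fdx1, whose product is an electron carrier (27.8 ± 2.20 and 39.8 ± 2.64 TPM in cold and control), and bola1 (24.1 ± 2.18 and 33.9 ± 2.56 TPM in cold and control) fell as well, with limma adjusted p between 0.000355 and 0.00240 for these 4 genes. The rises, nfs1, ciao3 and mms19, were named after their values were seen, and the call of mms19 (adjusted p = 0.0370) was lost with a replicate block and without any single library except control 2. The cysteine desulfurase gene nfs1, which supplies the sulfur, was at 43.0 ± 4.99 TPM in cold and 33.6 ± 1.55 TPM in control (0.34 ± 0.09, limma adjusted p = 0.0134). The scaffold gene iscu, also named after its values were seen, was at 91.8 ± 8.87 TPM in cold and 88.6 ± 9.63 TPM in control and was not called.

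Heme synthesis, transport and breakdown held 2 rises (9.09%) and 7 falls (31.8%) among 22 tested genes, against 13.0% and 23.6% of all tested genes. After median-of-ratios scaling the counts were 4 and 4, against 18.6% and 16.8% of all tested genes. The falls of lowest p included the first and the last step of heme synthesis. The gene alas1, which encodes the first enzyme outside red cells, fell, at 72.5 ± 3.46 TPM in cold and 107 ± 11.5 TPM in control (-0.55 ± 0.08, limma adjusted p = 0.000945). The ferrochelatase gene fech, whose product inserts the iron, fell, at 8.71 ± 2.07 TPM in cold and 16.8 ± 2.98 TPM in control (-0.89 ± 0.16, limma adjusted p = 0.00332).

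The intermediate enzyme gene cpox fell too (13.3 ± 0.696 TPM in cold and 18.1 ± 1.57 TPM in control), as did flvcr2b, a transporter gene of the FLVCR family (8.11 ± 1.68 and 13.7 ± 1.53 TPM in cold and control), with limma adjusted p of 0.00382 and 0.00558. On the breakdown side, the heme oxygenase gene hmox2b rose, at 46.6 ± 1.74 TPM in cold and 37.4 ± 2.44 TPM in control (0.31 ± 0.06, limma adjusted p = 0.00459). Its more abundant copy hmox2a was not called, at 83.2 ± 3.75 TPM in cold and 79.3 ± 7.45 TPM in control (limma adjusted p = 0.473). Nor was hmox1a called (limma adjusted p = 0.0731), except after median-of-ratios scaling, where it was higher. The biliverdin reductase gene blvra fell, at 55.6 ± 3.66 TPM in cold and 67.1 ± 5.28 TPM in control (limma adjusted p = 0.0189), but not after median-of-ratios scaling (0.138) or without cold 3 (0.0507). The other rise of the list was in synthesis, that of uros, at 27.3 ± 3.60 TPM in cold and 21.5 ± 1.24 TPM in control (limma adjusted p = 0.0244). The call of uros was lost with a replicate block and without either of control 3 and control 4. The genes hmox2a, hmox1a and uros were named after their values were seen.

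Markers of other cells that could hold hepcidin were set beside hamp. In bulk tissue fewer cells of a type and less RNA per cell cannot be told apart. Of the 14 hepatocyte symbols listed, 7 were rows, and limma called 0 of the 2 tested (1 at an unadjusted p under 0.05), with a summed level of 48.7 to 76.8 TPM in cold and 65.3 to 96.5 TPM in control, most of it the retinol carrier gene rbp4 (56.9 ± 8.15 TPM in cold and 75.1 ± 15.4 TPM in control). The apolipoprotein gene apobb.1 was close to undetected in both groups, at 0 in all 4 cold libraries and at 0 to 0.0530 TPM in control. The fibrinogen gene fga was at 2.68, 5.96, 3.07 and 2.57 TPM in cold libraries 1 to 4, and at 2.58 to 2.92 TPM in control.

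The fibrinogen gene fgb was at 0.364, 2.23, 0.0784 and 0.0778 TPM in cold libraries 1 to 4, against 0.0853 to 0.156 TPM in control, and was named after its values were seen. The third fibrinogen gene fgg, too low to be tested, was at 0.890, 2.52, 0.282 and 0.285 TPM in cold libraries 1 to 4, against 0.0894 to 0.313 TPM in control. The plasma protein gene ambp was at 0.216, 2.03 and 0.341 TPM in cold libraries 1 to 3 and listed at 0 in cold 4, against 0 to 0.312 TPM in control. Cold 2, the library highest in hamp, was thus also highest in fga, fgb, fgg and ambp. The antithrombin gene serpinc1 was by contrast lowest in cold 2, at 0.438, 0.0916, 0.370 and 0.187 TPM in cold libraries 1 to 4, against 0.308 to 0.703 TPM in control. These 3 genes too were named after their values were seen. Without cold 2 the log2 change of hamp was 3.55, and the part of these markers in the level of hamp was not tested.

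Of 10 red blood cell symbols listed, 5 were rows, and none of the listed globin symbols was among them. The spread of these 5 markers within a group ran from 1.15-fold (tmod4 in cold) to 18.0-fold (slc4a1a in control). None was called by limma (0 at an unadjusted p under 0.05). Their summed level was 35.1 to 131 TPM in cold and 22.5 to 111 TPM in control. The red cell heme enzyme gene alas2 was at 19.1, 25.5, 29.4 and 85.0 TPM in cold libraries 1 to 4, against 13.2, 66.2, 28.4 and 20.6 TPM in control libraries 1 to 4, and the anion exchanger gene slc4a1a was likewise highest in cold 4 (27.0 TPM) and control 2 (23.2 TPM). In the same libraries hamp was at 41.3 TPM in cold 4 and 0.302 TPM in control 2. Without both libraries, a pair chosen after the values were seen, the log2 change of hamp was 3.39. The part of red cell markers in the level of hamp was not tested.

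Genes listed as markers of microglia and macrophages, cells that handle much of the iron in tissue, were called in both directions. Of these 8 genes, 2 were higher (25.0%) and 3 lower (37.5%), against 13.0% and 23.6% of all tested genes. Their summed level was 221 to 262 TPM in cold and 247 to 328 TPM in control. The microglial receptor gene p2ry12, named after its values were seen, fell to 2.25 ± 0.589 TPM in cold, against 25.2 ± 4.67 TPM in control (limma adjusted p = 9.86e-06). The aif1-like gene aif1l, the listed gene of highest level, rose (127 ± 10.9 and 108 ± 4.19 TPM in cold and control, limma adjusted p = 0.0247, and 0.0507 to 0.0688 without cold 3, control 3 or control 4). Whether aif1l marks these cells here was not tested. Of the other calls, ptprc and c1qb (lower) and cd68 (higher) were named after their values were seen. The level of ptprc was 13.6 ± 2.54 TPM in cold and 22.2 ± 5.39 TPM in control (limma adjusted p = 0.0174). The calls of p2ry12 and ptprc, both lower, held under every alternative run. That of cd68 was lost without any of cold 2, cold 4, control 1 and control 2. That of c1qb was lost without any of cold 1, cold 2, cold 3, control 3 and control 4, and after median-of-ratios scaling. Of 5 neutrophil markers 2 were called higher (40.0%) and 1 lower (20.0%), against 13.0% and 23.6% of all tested genes. The summed level of these markers was 51.1 to 63.5 TPM in cold and 34.8 to 50.8 TPM in control. After median-of-ratios scaling 3 were higher and 1 lower. One of the rises, mmp9 (adjusted p = 0.0324), was lost with a replicate block (0.0623), with no filter on low values (0.0508) and without any of cold 1, cold 4, control 1, control 2 and control 3 (0.0542 to 0.0814). The other rise, mmp13a, was low, at 3.38 ± 1.47 TPM in cold and 0.697 ± 0.173 TPM in control (limma adjusted p = 0.00348). The fall was csf3r, at 2.32 ± 0.293 TPM in cold and 4.73 ± 0.695 TPM in control (limma adjusted p = 0.00143). Both mmp13a and csf3r were named after their values were seen, and their calls held with any single library left out. The part of microglial, macrophage and neutrophil markers in the level of hamp was not tested.

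Of 6 endothelial markers 1 was called higher and 3 lower, against 13.0% and 23.6% of all tested genes. The rise was egfl7 (61.5 ± 11.1 and 32.5 ± 4.73 TPM in cold and control). Among the falls was the growth factor receptor gene kdr (19.8 ± 4.41 and 42.8 ± 3.33 TPM in cold and control). The summed level of the 6 was 114 to 161 TPM in cold and 135 to 166 TPM in control. Of 7 choroid plexus symbols listed, only 2 were rows, foxj1a and foxj1b, so most of this list could not be read. None of these 2 was called by limma (0 at an unadjusted p under 0.05). Their summed level was 5.25 to 8.62 TPM in cold and 5.57 to 10.1 TPM in control. Of 8 pituitary symbols listed, 7 were rows and 4 were tested. None of these 4 was called either (0 at an unadjusted p under 0.05). The summed level of the 7 was 0.745 to 13.9 TPM in cold and 0.356 to 18.9 TPM in control.

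**Figure D5:**
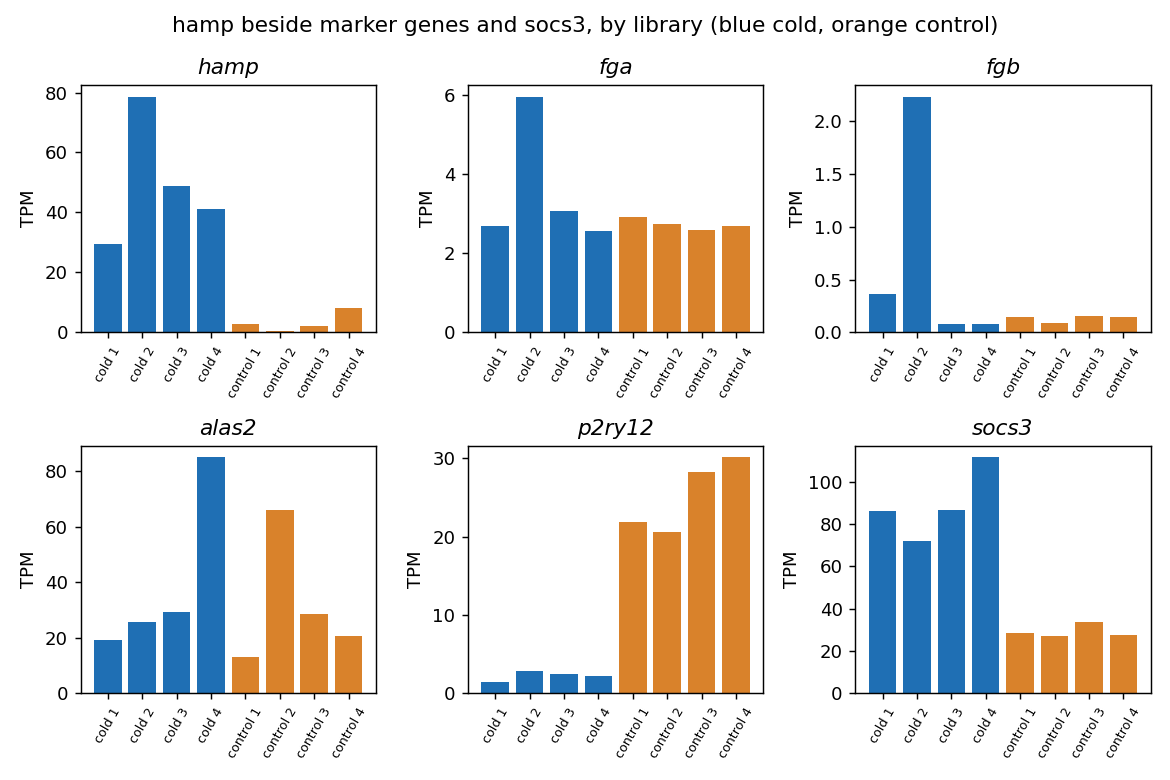
Level (TPM, linear axes from 0 that differ between panels) of hamp, the fibrinogen genes fga and fgb, the red cell gene alas2, the microglial gene p2ry12 and the STAT3 target socs3 in each library, cold in blue and control in orange. Cold 2 is highest in hamp (78.6 TPM), fga (5.96 TPM) and fgb (2.23 TPM), and alas2 is highest in cold 4 (85.0 TPM) and control 2 (66.2 TPM).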

How the data were processed

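Midbrain polyadenylated RNA was sequenced in 8 libraries, grouped by the sample titles. Per the submitters' processing notes HISAT2 was used. The sources used here do not state the counting program, genome build or annotation. The authors deposited TPM values, 29533 rows per library. The values are described as TPM. They sum to 1000000 per library, as TPM does, but that sum does not itself show scaling by gene length. TPM keeps no absolute depth, so no counting interval is given.

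limma 3.58.1 in R 4.3.3 was fitted with the trend option to log2(TPM + 1), cold minus control, for genes whose mean reached 1 TPM in either group, two-sided, with Benjamini-Hochberg adjustment. It was tested on simulated data. Symbols for LOC identifiers came from the RefSeq gene table of assembly O_niloticus_UMD_NMBU. It holds no product names, so the planned matching by product was not done. Genes named besides the members were, per list, up to 6 called genes of lowest p, and fixed kinds such as ferritins, BMP ligands and transferrin receptors. A gene that this rule takes in is not reported here. For cell markers the 2 of highest level per list served as candidates, of which those set beside a result are printed. Members and lists were chosen with earlier results of these data known. Alternatives were another pseudocount, filter or scaling, a replicate block and left-out libraries.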

Additional observations from a re-analysis of the deposited data

Results flagged for a closer look

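Among 112 groups of 4 libraries checked (members and named genes), 9 held a library whose gap to its nearest neighbour exceeded Dixon's 95% critical share of the group's range. Chance flags about 1 in 20 groups. None concerned a member. Cold 2 had 5.96 TPM of fga (others 2.57 to 3.07), 4.13 TPM of cebpa (others 2.73 to 2.84) and 14.5 TPM of smad1 (others 18.7 to 19.4). Cold 4 had 85.0 TPM of alas2 (others 19.1 to 29.4), 27.0 TPM of slc4a1a (others 3.92 to 7.80) and 11.0 TPM of the growth hormone gene gh1 (others at 0). Control 2 had 23.2 TPM of slc4a1a (others 1.29 to 4.95). Control 3 had 11.3 TPM of the luteinizing hormone gene lhb (others 0 to 1.02), and control 4 had 26.5 TPM of exoc6 (others 24.5 to 24.8).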

How the results depend on the processing

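Under the 15 alternatives run, the log2 change of hamp stayed between 3.33 and 4.45, and those of slc40a1, ireb2, aco1 and ncoa4 kept their sign. Called iron genes higher in cold numbered 12, but 20 after median-of-ratios scaling. With single libraries left out they numbered 9 to 13, those lower 25 to 27 (28 with all libraries), all called genes 5782 to 6387 (6914 with all libraries), and the log2 change of hamp 3.33 to 4.26. Without control 2 and cold 4, a choice made after seeing the data, 9 were higher and 22 lower. Replicate numbers showed no sign of pairing the libraries. After each gene's group mean was subtracted, the remaining values of same-numbered cold and control libraries correlated at -0.226 to 0.0542. With a replicate block the log2 change of hamp was 3.79, and 9 iron genes were higher and 25 lower. Unknown depth limits the low control values of hamp.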
